A study of Mus musculus with 8 samples.

Results

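The 9 genes described here, Coch, Otos, Otor, Pou3f4, Tbx18, Car3, Slc4a10, Sdpr and Kcnk2, are known for their expression in the fibrocytes of the spiral ligament, the connective tissue of the lateral wall of the cochlea. They were chosen by symbol, and all 9 were found among the 47517 symbols of the count files. RNA from the inner ear of mice at postnatal day 14 was sequenced in 8 samples. The wild-type group held 4 samples of littermates without the mutation. The mutant group held 4 samples of mice heterozygous for a frameshift in the gene of thyroid hormone receptor α1 (TRα1), and the labels name no treatment. The sources used here do not give the strain, the exact allele or the number of animals or ears behind a sample. Nothing says that the samples of a group came from separate animals, and p-values then reflect only their spread, which may be technical. Sample titles hold 1 number in replicates 1 and 4 and 2 numbers in replicates 2 and 3 of each group, a split (title form) handled as a possible batch.

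Spiral ligament fibrocytes lie between the bone of the cochlear wall and the stria vascularis. They take up potassium that has left the hair cells and pass it through gap junctions to the stria, which returns it to the endolymph, and they lay down the extracellular matrix that anchors the lateral wall. They arise from the mesenchyme around the developing ear. Thyroid hormone is required for the cochlea to mature, and its receptors act as transcription factors that repress or activate target genes. The genotype comparison asks whether RNA of these genes differs in mice with the altered receptor. Whole tissue was measured, so fewer cells of a type and less RNA per cell cannot be told apart.

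Libraries held 18930841 to 23064578 counts. The 9 genes together took between 0.398% and 0.637% of them, with the lowest share in wild-type replicate 2. That library also had the most haemoglobin counts, 4.88% of its total against 0.781% to 2.49% in the others. Values below are counts scaled to the normalized library size (CPM). A gene was called at an adjusted p under 0.05 in edgeR's quasi-likelihood test with Benjamini-Hochberg adjustment over 21392 genes tested. Of these, 9 genes (0.0421%) were called. Thra, the gene of the receptor, stood at 98.4 to 114 CPM in wild-type and 113 to 137 CPM in mutant libraries, which cannot show a frameshift. Its log2 difference of 0.24 was not called (SE 0.089, edgeR unadjusted p = 0.0230, adjusted p = 0.924, 95% interval 0.042 to 0.44). Mutant replicate 4 stood apart in genes of the choroid plexus of the brain, since all 10 markers of it were highest there. Ttr reached 2020.8 CPM against at most 32.5 CPM in any other library, and Folr1 7.62 CPM against at most 1.10 CPM. The 8 markers of airway mucosa, of which 4 were called lower (Bpifa1, Krt4, Krt5 and Krt14), summed to 188 to 634 CPM among wild-type libraries and to 3.95 to 6.21 CPM among mutant libraries. Their part in the levels of the 9 genes was not tested.

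Windows upstream of the start site are shown for 5 genes that correlated across libraries, Coch with Slc4a10 and Otor with Pou3f4 and Tbx18. Car3 correlated with the latter too. The sequences are those of RefSeq on GRCm38.p6, whose table matched 8 of the 9 genes by symbol or, for Sdpr, by the newer symbol Cavin2, and Car3 had no entry. Each is written 5′ to 3′ on the gene's strand and ends where the RefSeq or, if earlier, the GENCODE gene model begins. Capitals mark matches on either strand to 3 promoter elements. They are the TATA box with the letters TATAAA, the CCAAT box with the letters of its name, and the GC box, written GGGCGG.
Coch (chr12:51593091-51593340, plus strand): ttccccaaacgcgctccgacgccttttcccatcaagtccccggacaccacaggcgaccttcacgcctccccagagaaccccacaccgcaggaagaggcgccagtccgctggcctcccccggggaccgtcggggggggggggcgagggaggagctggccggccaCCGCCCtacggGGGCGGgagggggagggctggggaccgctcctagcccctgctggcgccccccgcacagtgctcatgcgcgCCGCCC
Slc4a10 (first start site, chr2:62046265-62046461, plus strand): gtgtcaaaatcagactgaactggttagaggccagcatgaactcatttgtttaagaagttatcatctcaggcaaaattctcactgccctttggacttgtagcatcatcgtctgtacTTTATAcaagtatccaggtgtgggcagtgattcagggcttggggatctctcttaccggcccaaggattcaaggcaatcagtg
Otor (chr2:143078143-143078392, plus strand): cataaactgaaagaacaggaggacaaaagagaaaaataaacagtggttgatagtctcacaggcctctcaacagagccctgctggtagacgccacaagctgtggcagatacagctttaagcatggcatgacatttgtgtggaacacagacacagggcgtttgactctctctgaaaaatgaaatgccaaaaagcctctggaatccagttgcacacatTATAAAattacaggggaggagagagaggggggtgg
Pou3f4 (chrX:110814129-110814279, plus strand): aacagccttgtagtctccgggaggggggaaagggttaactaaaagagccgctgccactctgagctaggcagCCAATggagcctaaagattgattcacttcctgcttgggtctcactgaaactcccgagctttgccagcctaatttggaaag
Tbx18 (chr9:87731261-87731510, minus strand): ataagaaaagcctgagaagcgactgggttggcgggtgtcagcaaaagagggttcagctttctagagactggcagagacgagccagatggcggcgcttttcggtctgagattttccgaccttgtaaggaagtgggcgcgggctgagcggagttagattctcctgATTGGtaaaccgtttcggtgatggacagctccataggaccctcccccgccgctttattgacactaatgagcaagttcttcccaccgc

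The 250 bases upstream of the RefSeq start were rich in GC at Coch (74.8%, with 24 CG pairs), against a median of 52.4% and 6 CG pairs over the 32851 windows in the table. The Otor window held 46.0% GC and 2 CG pairs, with a TATA box 35 bases before the start on the gene's strand. Slc4a10 held the same letters on the other strand, 135 bases before its start. A TATAAA match was present in 12.4% of all windows. Tbx18 and Pou3f4 held 54.0% and 58.0% GC, with 15 and 13 CG pairs, and both had a CCAAT box, as had 33.8% of all windows. GC, CG pairs, matches and positions here refer to the 250 bases before the RefSeq start. Of these bases 151 are printed for Pou3f4 and 197 for Slc4a10, whose GENCODE gene models begin earlier. Further CCAAT matches of Pou3f4 lie in the part not printed. The core site of thyroid hormone receptors, AGGTCA, searched on both strands, occurred in 0 of the 12 windows of the 8 genes and in 14.0% of all windows. The octamer of POU factors, ATGCAAAT, also had 0 matches there, with 1.6% of all windows holding it. The T-box site searched, AGGTGTGA, had 0 as well against 1.12% of all windows. These counts describe letters in a short window and say nothing of binding.

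Levels between genes were compared as CPM per kilobase of exon. In wild-type libraries they formed 4 tiers (n = 4, mean ± SD). Coch stood at 848 ± 113 and did not overlap with the next gene. Car3 (366 ± 97.4), Otos (350 ± 81.9) and Otor (205 ± 112) followed, and neighbours in this order overlapped. The third tier held Slc4a10 (20.1 ± 1.94), Pou3f4 (17.1 ± 4.24), Sdpr (14.6 ± 1.73) and Tbx18 (12.3 ± 3.12), whose neighbours overlapped as well. Kcnk2 was lowest at 5.54 ± 0.227 and did not overlap with Tbx18. In mutant libraries Coch (799 ± 305) overlapped with Car3 (501 ± 131), while the gaps between Otor and Slc4a10 and between Tbx18 and Kcnk2 were present there too. By CPM over all 8 libraries, Coch ranked 32nd, Car3 50th and Otos 56th among the genes tested.

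**Figure D1:**
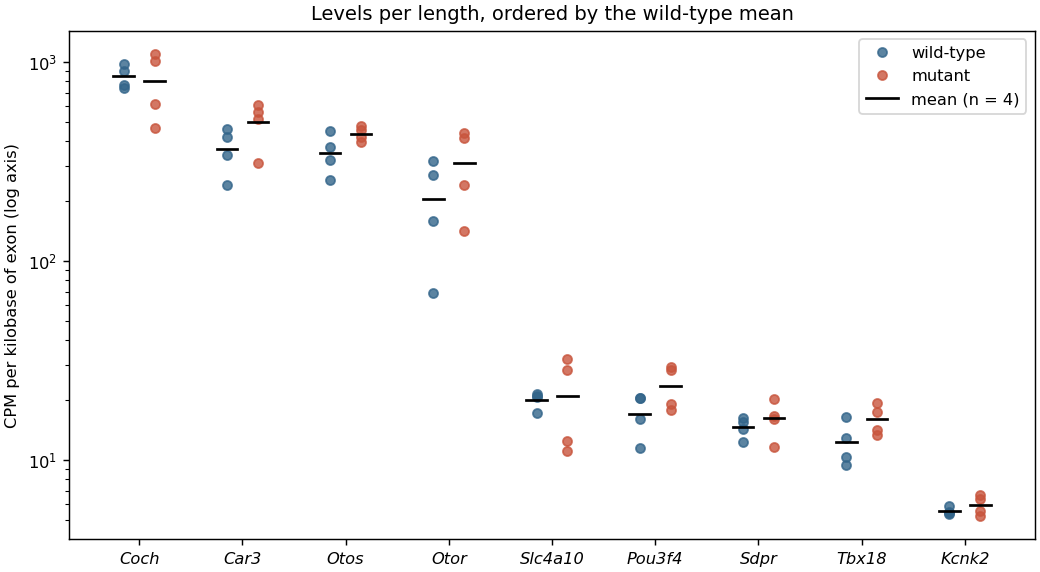
CPM per kilobase of exon (log axis) of the 9 genes in each of the 4 wild-type (blue) and 4 mutant (red) libraries, with black lines at the group means, ordered by the wild-type mean. The secreted proteins and Car3 sit above the transcription factors, Slc4a10, Sdpr and Kcnk2, with a gap between Otor and Slc4a10 in both groups.

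None of the 9 genes was called between the genotypes. In edgeR 0 of 9 passed at an adjusted p under 0.05 and 0 at an unadjusted p under 0.05, a level that 5.30% of all genes tested reached. DESeq2 and limma-voom also called 0. At an unadjusted p under 0.05 DESeq2 had 1 gene, Pou3f4, and limma-voom 0. The log2 fold change of mutant over wild-type was positive for 8 of the 9 genes, with a median of 0.32, against 48.3% positive and a median of -0.0061 over all genes tested. The genotypes overlapped for all 9 genes, whereas 2.69% of the genes tested did not overlap. Several of the 9 also varied together across libraries, so their shared sign does not amount to 8 separate observations.

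**Figure D2:**
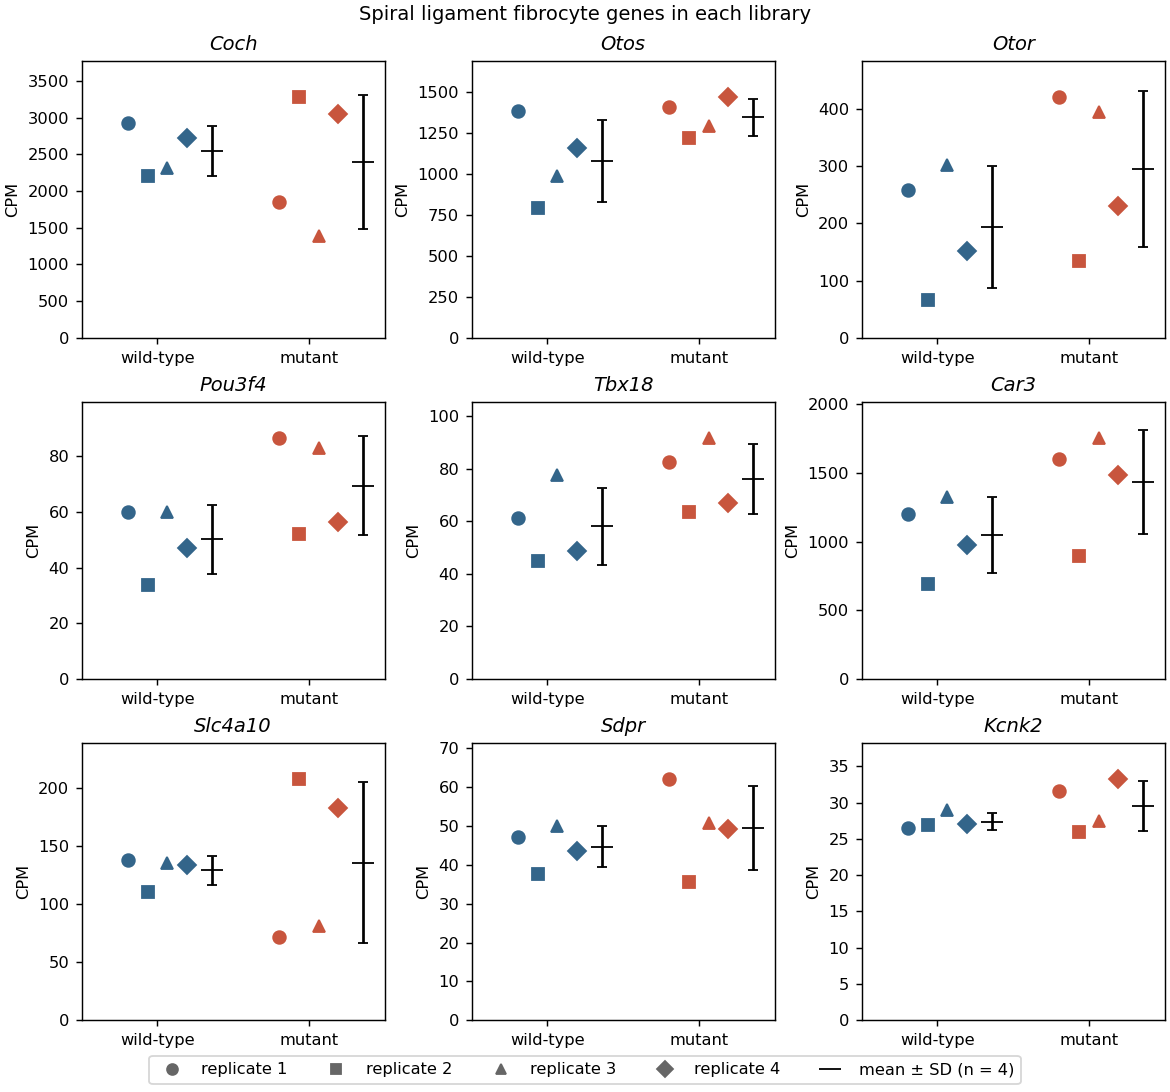
CPM of each gene in the 4 wild-type and 4 mutant libraries, with a marker shape for each replicate number and the mean ± SD (n = 4) beside each group; each axis starts at 0. The groups overlap in every panel, and Coch and Slc4a10 have mutant libraries both above and below all wild-type libraries.

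The secreted proteins come first. Coch encodes cochlin, an abundant matrix protein of the spiral ligament in which human mutations cause progressive deafness with loss of balance (chr12:51593341-51605771, plus strand, ENSMUSG00000020953.17). Wild-type replicates 1 to 4 held 2928, 2212, 2310.3 and 2718 CPM. Mutant replicates 1 to 4 held 1856, 3279, 1394 and 3050.0 CPM. Mutant replicates 2 and 4 lay above every wild-type library and mutant replicates 1 and 3 below every one. Wild-type libraries averaged 2542 ± 338 CPM and mutant libraries 2395 ± 914 CPM (SD, n = 4 per genotype). On the log2 scale the difference was -0.086 (SE 0.27, edgeR adjusted p = 1.0, 95% interval -0.69 to 0.52). The sign turned without mutant replicate 1 (0.018) or mutant replicate 3 (0.10).

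Otos encodes otospiralin, a small secreted protein of fibrocytes whose loss impairs hearing in mice (chr1:92644218-92648841, minus strand, ENSMUSG00000044055.5). Its values were 1385, 790.3, 988 and 1158 CPM for wild-type replicates 1 to 4, against 1410.1, 1218, 1295 and 1469 CPM for the mutant ones. Mutant replicates 1 and 4 exceeded all wild-type libraries, and wild-type replicates 2 and 3 were the lowest of the 8. Group means of 1080.2 ± 253 and 1348 ± 113 CPM (SD, n = 4 per genotype) differed by 0.32 on the log2 scale (SE 0.17, edgeR adjusted p = 0.929, 95% interval -0.070 to 0.71). The interval thus reached from 0.953-fold to 1.63-fold.

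Otor encodes otoraplin, a secreted protein of the MIA family of cartilage and fibrocyte products (chr2:143078473-143081713, plus strand, ENSMUSG00000027416.2). It varied most of the 9 genes, with 258, 65.8, 301 and 151 CPM for wild-type replicates 1 to 4. The mutant replicates held 419.9, 134, 394 and 229 CPM. Mutant replicates 1 and 3 were above all wild-type libraries, and wild-type replicate 2 was the lowest. The highest library held 6.38 times the CPM of the lowest. With 194 ± 106 CPM for wild-type and 294 ± 136 CPM for mutant libraries (SD, n = 4 per genotype) the log2 difference was 0.60 (SE 0.53, edgeR adjusted p = 1.0), and its 95% interval ran from -0.62 to 1.83. It was 0.31 without wild-type replicate 2.

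The transcription factors follow. Pou3f4 acts in the mesenchyme around the ear, and its loss causes X-linked deafness with malformed fibrocytes (chrX:110814280-110817207, plus strand, ENSMUSG00000056854.4). Wild-type replicates 1 to 4 held 59.9, 33.9, 59.9 and 47.1 CPM, and their mutant counterparts 86.4, 52.1, 82.8 and 56.2 CPM. Mutant replicates 1 and 3 lay above all wild-type libraries, while the other two were inside the wild-type range. Means of 50.2 ± 12.4 and 69.4 ± 17.7 CPM (SD, n = 4 per genotype) gave a log2 difference of 0.47 (SE 0.23, edgeR adjusted p = 0.925, 95% interval -0.055 to 0.99).

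Tbx18 is a T-box factor needed for otic mesenchyme to become fibrocytes (chr9:87702800-87731260, minus strand, ENSMUSG00000032419.8). Its exons overlap D030062O11Rik on the opposite strand, which had 619 counts over all libraries, and without the strand setting of the counting their reads cannot be told apart. Tbx18 had 61.1, 44.8, 77.6 and 48.8 CPM for wild-type replicates 1 to 4 and 82.5, 63.4, 91.5 and 66.7 CPM for the mutant ones. As with Pou3f4, mutant replicates 1 and 3 were above all wild-type libraries and the other mutant libraries were within their range. The wild-type mean of 58.1 ± 14.7 CPM and the mutant mean of 76.0 ± 13.3 CPM (SD, n = 4 per genotype) differed by 0.39 on the log2 scale (SE 0.19, edgeR adjusted p = 0.925, 95% interval -0.042 to 0.82).

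Enzyme, transporter and membrane genes make up the rest. Car3, a cytosolic carbonic anhydrase also abundant in skeletal muscle and fat (chr3:14863512-14872523, plus strand, ENSMUSG00000027559.5), gave 1201, 690.0, 1325 and 975 CPM for wild-type replicates 1 to 4. Mutant replicates 1 to 4 held 1603, 896, 1753 and 1488 CPM. Of the mutant libraries 3 exceeded every wild-type library, and replicate 2 was the lowest within each genotype. From 1048 ± 279 CPM in the first genotype to 1435 ± 375 CPM in the other (SD, n = 4 per genotype) the log2 difference was 0.45 (SE 0.25, edgeR adjusted p = 0.939, 95% interval -0.12 to 1.03). The 12 skeletal muscle markers together summed to between 20.6 and 33.0 CPM and the 8 adipocyte markers to between 16.0 and 39.3 CPM, with Lep at 0 counts in every library. Their part in Car3 was not tested.

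Slc4a10, a sodium-coupled bicarbonate transporter also found in neurons and choroid plexus (chr2:62046462-62326730, plus strand, ENSMUSG00000026904.17), reached 137, 110, 135 and 133 CPM across wild-type replicates 1 to 4. Its mutant values were 71.5, 207, 80.6 and 183 CPM. As for Coch, mutant replicates 2 and 4 were above and mutant replicates 1 and 3 below all wild-type libraries. The means were close, at 129 ± 12.5 CPM for wild-type and 136 ± 69.5 CPM for mutant libraries (SD, n = 4 per genotype). Their log2 difference was 0.071 (SE 0.34, edgeR adjusted p = 1.0, 95% interval -0.72 to 0.86), and its sign turned without mutant replicate 2 (-0.21) or mutant replicate 4 (-0.11). The 10 choroid plexus markers summed to 86.9, 107, 64.6 and 2186 CPM for mutant replicates 1 to 4. Their range was 74.7 to 98.1 CPM in wild-type libraries. The sum exceeded it in mutant replicates 2 and 4, the libraries with the most Slc4a10. In mutant replicate 2 Ttr held 32.5 CPM, against 5.76 to 16.2 CPM in wild-type libraries. Clic6, Kl, Kcnj13, Otx2, Sostdc1 and F5 lay within their wild-type ranges in that library. Slc4a5, Folr1 and Prlr lay slightly above theirs. The 8 neuron markers summed to 2797, 2159, 1807 and 2800 CPM for mutant replicates 1 to 4. Among wild-type libraries their sum was 1828.5 to 2720 CPM. Mutant replicate 1, with the least Slc4a10, thus had a higher neuron sum than mutant replicate 2, with the most. The part of the choroid plexus and neuron markers in Slc4a10 was not tested.

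Sdpr, now named Cavin2, encodes a coat protein of caveolae that is also abundant in endothelium (chr1:51289126-51302960, plus strand, ENSMUSG00000045954.7). Its values were 47.3, 37.8, 49.9 and 43.7 CPM for wild-type replicates 1 to 4, and 62.0, 35.7, 50.9 and 49.3 CPM for mutant ones. Mutant replicate 1 was the highest and mutant replicate 2 the lowest of the 8 libraries. The log2 fold change was 0.15 (SE 0.16, n = 4 per genotype, edgeR adjusted p = 1.0, 95% interval -0.22 to 0.52), and 0.019 without mutant replicate 1. The 8 endothelial markers summed to 224 to 325 CPM among wild-type and 259 to 393 CPM among mutant libraries, and their part in Sdpr was not tested.

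Kcnk2 encodes TREK-1, a potassium channel opened by membrane stretch and lipids (chr1:189207930-189402273, minus strand, ENSMUSG00000037624.15). The antisense gene A430027H14Rik overlaps its exons but had only 88 counts over all libraries. Kcnk2 varied least, at 26.5, 26.9, 29.0 and 27.1 CPM for wild-type replicates 1 to 4 and 31.6, 25.9, 27.5 and 33.2 CPM for mutant ones. Mutant replicates 1 and 4, those with 1 number in the title, exceeded all wild-type libraries. The log2 fold change was 0.11 (SE 0.094, n = 4 per genotype, edgeR adjusted p = 1.0, 95% interval -0.10 to 0.32). It was 0.28 where the titles hold 1 number and -0.067 where they hold 2. The difference between these values, as an interaction term, was -0.34 (SE 0.13, edgeR unadjusted p = 0.0336, adjusted p = 1.0).

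**Figure D3:**
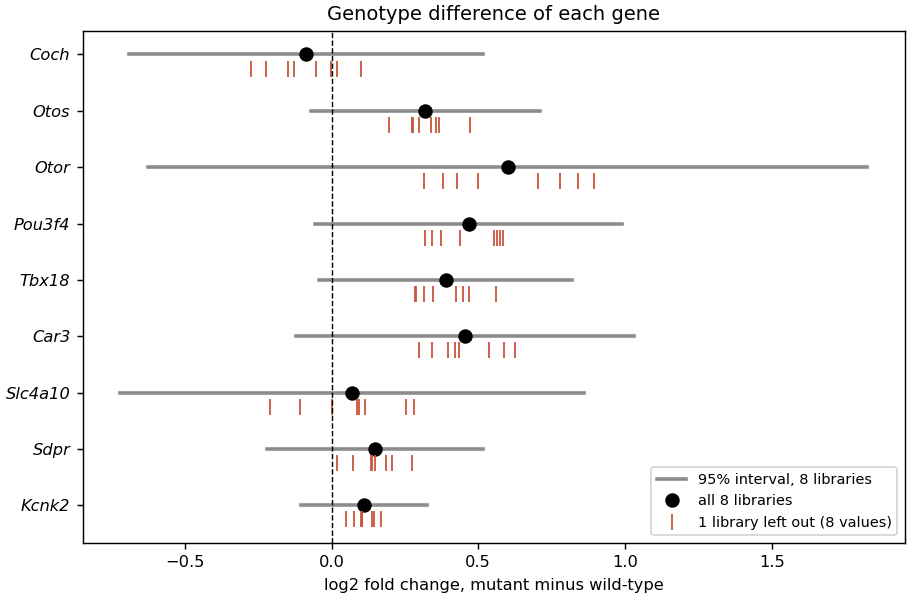
Log2 fold change (mutant minus wild-type) of each gene with all 8 libraries (black points), its 95% interval (grey lines) and the 8 values with 1 library left out (red ticks). All 9 intervals include 0, and the ticks of Coch and Slc4a10 fall on both sides of it.

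Split by title form, the log2 fold changes for 1 and for 2 numbers were 0.68 and 0.53 for Otor, 0.52 and 0.40 for Car3, 0.43 and 0.52 for Pou3f4 and 0.45 and 0.34 for Tbx18. Otos differed by 0.19 and 0.50 in the same order. For these 5 genes both values were thus positive. For Coch they were -0.20 and 0.046, for Slc4a10 -0.087 and 0.23, and for Sdpr 0.30 and -0.020. Title form itself was called for 9.39% of the genes tested and for 0 of the 9 (edgeR with genotype as covariate). The smallest p was that of Otos, which was lower with 2 numbers (log2 difference -0.36, SE 0.11, unadjusted p = 0.0152, adjusted p = 0.0949). The interaction of genotype and title form was called for 0.0795% of the genes tested and for 0 of the 9, of which 1 (Kcnk2) had an unadjusted p under 0.05.

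The spread between libraries was wide for several of the 9. The coefficient of variation over all 8 libraries was 51.2% for Otor, against a median of 11.4% among 1116 tested genes within 2-fold of its mean CPM, and 98.0% of those genes varied less. For Slc4a10 (35.0%) and Pou3f4 (29.3%) the shares of such genes that varied less were 96.8% and 95.2%. Tbx18 (24.1%) exceeded 92.6% and Car3 (29.8%) 89.5% of the genes of like level. Kcnk2 (9.21%) exceeded 32.0%. For Coch it was 13.3% among wild-type and 38.2% among mutant libraries, and for Slc4a10 9.68% and 51.3% (n = 4 per genotype, difference not tested). Sdpr (11.8% and 21.8%) and Kcnk2 (4.098% and 11.5%) also varied more among mutant libraries. Otos went the other way (23.4% and 8.398%), as did Otor (54.8% and 46.2%) and Tbx18 (25.4% and 17.4%). Pou3f4 (24.8% and 25.6%) and Car3 (26.6% and 26.15%) hardly differed. The spread was thus not wider among mutant libraries for all 9 genes. Having 2 mutant libraries above and 2 below every wild-type library was seen for 209 of the genes tested (0.977%), and for Coch and Slc4a10 among the 9.

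**Figure D4:**
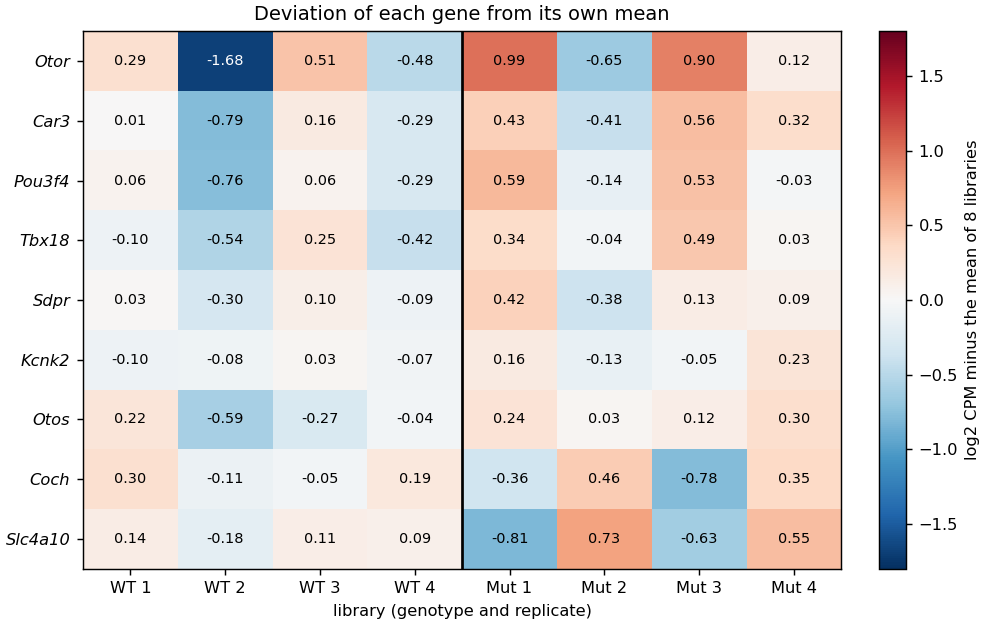
Log2 CPM of each gene minus its own mean over the 8 libraries (WT, wild-type; Mut, mutant; colour and printed value), with the genotypes split by the black line. Otor, Car3, Pou3f4 and Tbx18 are lowest in wild-type replicate 2 and highest in mutant replicates 1 and 3, the libraries in which Coch and Slc4a10 are lowest.

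The 9 genes did not vary as one group. Among the 36 pairs, 24 had a positive Pearson r of log2 CPM over the 8 libraries, and 9 pairs passed an exact two-sided permutation test after adjustment over the 36, all of them positive. Otor, Car3, Pou3f4 and Tbx18 formed 6 of these pairs. The highest r was that of Otor and Pou3f4 (r = 0.96, exact permutation p = 2.23e-04, adjusted p = 0.00804; rho = 0.98, adjusted exact permutation p = 0.0137; n = 8), and r was 0.96 without the 2 libraries farthest from the median of Otor, wild-type and mutant replicate 2. Otor and Car3 had r = 0.96 (exact permutation p = 5.46e-04, adjusted p = 0.00923; rho = 0.90) and 0.87 without the same libraries. Pou3f4 and Tbx18 had r = 0.92 (exact permutation p = 0.00141, adjusted p = 0.0113; rho = 0.90) and 0.90 without the 2 farthest. Sdpr passed with Otor (r = 0.87, adjusted exact permutation p = 0.0201; rho = 0.95; 0.84 without the 2 farthest) and with Car3 (r = 0.87, adjusted exact permutation p = 0.0201; rho = 0.93; 0.73 without the 2 farthest).

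Coch and Slc4a10 were the remaining pair (r = 0.90, exact permutation p = 0.00156, adjusted p = 0.0113; rho = 0.95, adjusted exact permutation p = 0.0137; n = 8). Without mutant replicates 1 and 3, the libraries farthest from the median of Coch, r was 0.86. Within each library the count of Coch was 15.8 to 26.0 times that of Slc4a10, whereas it was 3.54 to 33.6 times that of Otor. Coch had a negative r with Otor (-0.45), Pou3f4 (-0.52), Tbx18 (-0.55) and Car3 (-0.47), with adjusted exact permutation p of 0.374, 0.318, 0.317 and 0.347 in that order. Without mutant replicates 1 and 3 these turned positive (0.28, 0.50, 0.26 and 0.31), so the negative sign rests on those libraries. Otos and Kcnk2 were in 0 of the 9 pairs. Coch with Otos had r = 0.084 (adjusted exact permutation p = 0.859), and 0.86 without mutant replicates 1 and 3. With genotype means removed, 10 pairs passed, among them the same 9. Groups of 1 genotype or 1 title form hold 4 libraries, too few for a correlation of their own.

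**Figure D5:**
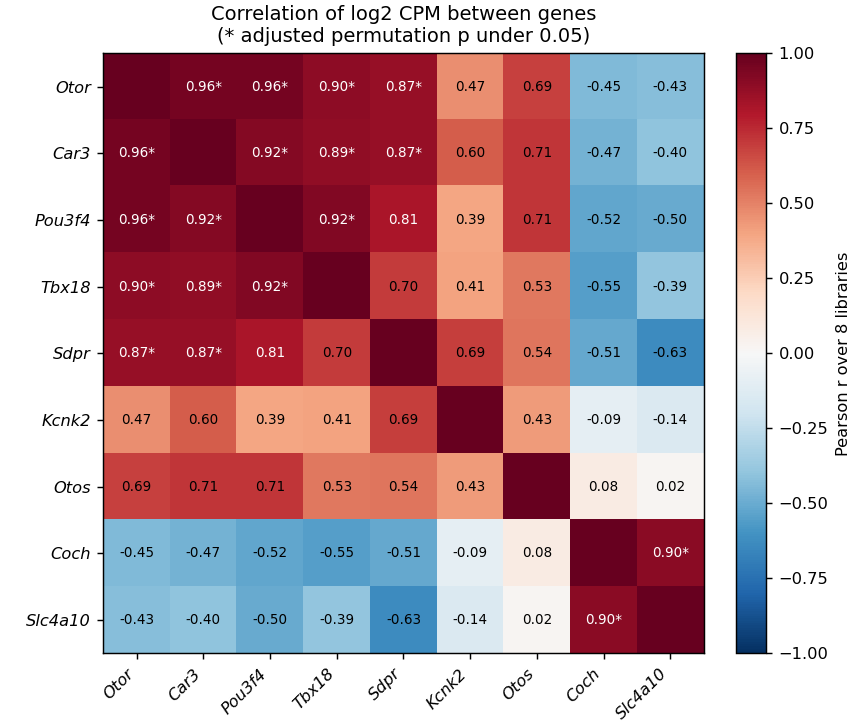
Pearson r of log2 CPM over the 8 libraries for each pair of genes, with an asterisk where the exact permutation p adjusted over 36 pairs is under 0.05. The block of Otor, Car3, Pou3f4, Tbx18 and Sdpr stands apart from the pair of Coch and Slc4a10 (0.90), and r between the blocks is negative.

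Such values of r were common in these libraries. Of 10858 other genes of at least 10 CPM with an established symbol, 358 had an r above 0.9 with Otor, and Pou3f4 and Car3 ranked 57th and 69th among them. Coch had 21 such genes, with Slc4a10 in 20th place. The genes most like each member over the 8 libraries, given as a description with no test, were as follows. For Otor they were the cartilage and tectorial collagens Col9a3 (r = 0.997) and Col9a1 (r = 0.99) and Nrep (r = 0.99). For Pou3f4 they were the DNA ligase Lig3, the collagen galactosyltransferase Colgalt2 and the collagen cross-linking enzyme Lox (r = 0.99 each). Tbx18 was followed by Pmp2 and Arhgef40 (r = 0.99 each) and Obsl1 (r = 0.98), and Car3 by Cnn3, Adam17 and Zfp518b (r = 0.99 each). Those of Coch included Ahcyl2 (r = 0.96) and Vps13d (r = 0.95). Slc4a10 came with Gpatch11 (r = 0.95), St8sia4 (r = 0.94) and Tpd52l1 (r = 0.93). Those of Otos were Stfa1 (r = 0.98), Exoc3 and Dopey2 (r = 0.95 each), those of Sdpr the inhibitor of differentiation Id1 (r = 0.99), the secreted Wnt antagonist Frzb and Rnase4 (r = 0.98 each), and those of Kcnk2 Cyb5d2 (r = 0.98), Bicd2 (r = 0.95) and Qpctl (r = 0.94).

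The summed level of bone and cartilage markers varied in the order of Otor at its extremes, while single markers differed. The 9 markers summed to 5244, 2346, 5492 and 4653 CPM for wild-type replicates 1 to 4 and to 7657, 3486, 7898 and 5631 CPM for mutant ones. Wild-type replicate 2 was thus the lowest and mutant replicates 1 and 3 the highest, as for Otor. Of the summed markers the cartilage collagen Col2a1 followed the same extremes, with 633 CPM in wild-type replicate 2 and 4689 and 4091 CPM in mutant replicates 1 and 3. The bone marker Ibsp did so too, with 448 CPM in wild-type replicate 2 and 1471 and 1960 CPM in mutant replicates 1 and 3. Bglap, also of bone, was instead highest in wild-type replicate 4 (1665 CPM), Dmp1 in wild-type replicate 3, Comp in mutant replicate 2 and Matn1 in wild-type replicate 2. Col9a1, which is not in that list, ranged from 60.9 CPM in wild-type replicate 2 to 856 CPM in mutant replicate 1. The 9 fibroblast markers summed to 5927 to 11529 CPM among wild-type and 8696 to 15701 CPM among mutant libraries, and the 7 pericyte markers to 319 to 498 CPM and 364 to 529 CPM. The summed level of the 8 markers of meninges ran the other way, with 8304 CPM in wild-type replicate 2 and 4982 and 3886 CPM in mutant replicates 1 and 3. Ptgds, which ranged from 3619.1 to 7958.1 CPM over the 8 libraries, made up most of that sum. Slc6a13 hardly varied among mutant libraries (26.9 ± 1.02 CPM, SD, n = 4), so the sum does not describe each marker. Single-library values of the remaining meningeal markers are not given here. None of the lists of bone and cartilage, fibroblasts, pericytes or meninges had all its markers at 0 in a library, and their part in the levels of the 9 genes was not tested.

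Of 16 other genes known in lateral wall fibrocytes, 8 had a positive and 8 a negative log2 fold change, with a median of -0.0040, and 0 were called in edgeR (2 at an unadjusted p under 0.05; DESeq2 and limma-voom also called 0, with 3 and 2 at an unadjusted p under 0.05). Over all genes tested 5.30% had an unadjusted p under 0.05 in edgeR. The 2 of these 16 genes with the smallest p went in opposite directions without passing. Caveolin Cav1 had 54.7 to 73.4 CPM across wild-type and 75.6 to 88.5 CPM across mutant libraries, without overlap, and its log2 fold change was 0.38 (SE 0.11, edgeR adjusted p = 0.907). The water channel Aqp1 had 88.9 to 175 CPM and 66.7 to 114 CPM (-0.74, SE 0.23, adjusted p = 0.907). Among genes of the potassium route, the log2 fold change was 0.051 (SE 0.15) for the cotransporter Slc12a2, and -0.025 (SE 0.20) and -0.062 (SE 0.11) for the connexins Gjb2 and Gjb6. These 3 and the gene that follows were chosen once their values were known. Slc4a11, a membrane transporter of fibrocytes, held 383, 338, 186 and 359 CPM across wild-type replicates 1 to 4, and 105, 425, 85.4 and 329 CPM across mutant ones. Like Coch and Slc4a10 it was low in mutant replicates 1 and 3 and highest in mutant replicate 2.

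All 12 tested genes of periotic mesenchyme had a positive log2 fold change, with a median of 0.26, and 0 were called in edgeR (3 at an unadjusted p under 0.05; DESeq2 and limma-voom called 0, with 3 and 2). Over all genes tested 48.3% were positive and 5.30% had an unadjusted p under 0.05 in edgeR. The 12 genes summed to the least in wild-type replicate 2 (290 CPM) and the most in mutant replicates 1 (411 CPM) and 3 (426 CPM). Their shared sign thus need not amount to 12 separate observations. The forkhead factors Foxc1 (log2 fold change 0.35, SE 0.13, edgeR adjusted p = 0.924) and Foxf2 (0.66, SE 0.28, 0.924) had the smallest p, and Foxd1 was the third. Foxc1 was highest in mutant replicates 1 (105 CPM) and 3 (87.6 CPM) and lowest in wild-type replicate 2 (59.8 CPM), the same libraries as for Tbx18 and Otor. The bone and cartilage list had 6 of 9 genes positive (median 0.14, 0 called in edgeR, with Comp and Ibsp at an unadjusted p under 0.05), and the fibroblast list 9 of 9 (median 0.32, 0 called, with Dcn and Pdgfra at an unadjusted p under 0.05). DESeq2 and limma-voom called 0 in both lists, and genes within a list need not be separate observations.

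In the families of the 9 genes 0 relatives were called in edgeR, DESeq2 or limma-voom. Unadjusted p under 0.05 in edgeR was reached by 3 of 7 caveolar genes, 1 of 3 POU class 3 factors, 2 of 5 LCCL domain relatives of Coch, 1 of 13 carbonic anhydrases and 1 of 10 tandem-pore potassium channels. None of the 8 other Slc4 transporters, 7 T-box factors and 2 MIA family genes tested did so. Over all genes tested 5.30% reached that level, and no family was tested as a set. Around Sdpr, its partner Ptrf of the caveolar coat had a log2 fold change of 0.25 (SE 0.088, edgeR adjusted p = 0.907), and 6 of the 7 caveolar genes were positive. Pou3f3, of the same class as Pou3f4, had 40.0 to 53.2 CPM across wild-type and 53.6 to 71.9 CPM across mutant libraries, without overlap, and a log2 fold change of 0.37 that did not pass (SE 0.12, adjusted p = 0.907 in edgeR). The secreted LCCL proteins Crispld1 (0.73, SE 0.23, adjusted p = 0.907) and Vit (0.67, SE 0.28, adjusted p = 0.924) were each highest in mutant replicates 1 and 3, where Coch was lowest. Cav2, a caveolin that assembles with Cav1, had a value of 0.26 (SE 0.10, adjusted p = 0.924), the membrane-bound carbonic anhydrase Car4 -0.63 (SE 0.22, 0.911) and the acid-sensitive channel Kcnk3 of the family of Kcnk2 0.80 (SE 0.32, 0.924). Mia, a relative of Otor, had a value of 0.44 (SE 0.31, adjusted p = 0.982).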

How the data were processed

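Counts per gene were deposited for 8 libraries of mouse inner ear RNA, 4 per genotype. Per the labels' protocols, RNA was extracted with TRIzol and a silica column kit, and libraries carried unique molecular identifiers. Per the submitters' processing notes, FastQC, STAR and HTSeq and the build mm10 were used, and the sources used here give no versions, annotation, counting options, strand setting or use of the molecular identifiers. The deposited values are whole-number counts without normalization, with 47517 symbols per file. Coordinates and exon lengths came from GENCODE M21 on GRCm38, the assembly that mm10 names.

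Counts were fitted with edgeR 4.0.16 in R 4.3.3 with TMM normalization, the default filter, a robust fit and genotype as its only term. P-values were adjusted over all 21392 genes tested, of 33027 with a count. All 9 genes passed the filter. DESeq2 1.42.0 and limma 3.58.1 (voom) were alternatives, besides other scalings, filters, left-out libraries, covariates and a block. CPM used the normalized library sizes. Log2 CPM for correlations had a prior count of 2. Standard errors (SE) were derived from edgeR's test, as the absolute log2 fold change over the square root of its F statistic. Intervals are 95% intervals from this SE and a t distribution. Depth differed little between libraries (18930841 to 23064578 counts), and no 2 libraries agreed within sampling noise (lowest chi-square per degree of freedom 18.4). The tests were checked on simulated counts.

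The 9 genes and the 23 other lists were chosen with earlier results of these data known. Named genes were the 9, Thra, Ttr, the 3 genes most like each of the 9, and the called genes or the 2 with the smallest p of each list, and 1 gene under this rule is not reported here. Values of list genes are printed where a result turns on the list, and list genes named for an unadjusted p under 0.05 beyond that rule were chosen after their values were seen. An alternative without all-or-none genes, whose counts were 0 in one or more libraries and 10 or more in all remaining ones, was added after seeing the data, alone and with the block.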

Additional observations from a re-analysis of the deposited data

Results flagged for a closer look

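Slc4a10 in the wild-type libraries was picked out because wild-type replicate 2, at 110 CPM, lay far from the other libraries of its group, which held 133 to 137 CPM. The gap to the nearest library was 0.837 of the whole range, above Dixon's critical value for 4 samples. Of 18 groups of values (9 genes in 2 genotypes), 1 was picked out, and chance gives about 1 in 20.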

How the results depend on the processing

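Among the 9 genes, Otor, Pou3f4, Tbx18, Car3 and Otos kept a positive log2 fold change under every alternative, with ranges of 0.31 to 0.89, 0.32 to 0.58, 0.28 to 0.56, 0.30 to 0.62 and 0.19 to 0.50. Slc4a10 turned to -0.078 with limma-voom, to -0.087 among libraries with 1 title number, and ranged from -0.21 (without mutant replicate 2; -0.11 without mutant replicate 4) to 0.28 with single libraries left out. Coch ranged from -0.28 to 0.10 with single libraries left out (0.018 without mutant replicate 1) and was 0.046 among libraries with 2 title numbers, where Sdpr was -0.020 and Kcnk2 -0.067. The cause was not tested. Other scalings moved the median of all genes by less than 0.1. Over all genes, 1 was called higher and 8 lower. These counts were 44 and 69 with DESeq2, 5 higher with limma-voom, 5 lower without robust estimation, 4 lower with title form as covariate, 23 and 39 among libraries with 1 title number, 5 and 5 among those with 2, and 2 to 5 higher and 4 to 9 lower with single libraries left out. With genes of all-or-none counts left out they were 0 and 13.

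Replicate numbers follow accession order, and equal numbers in the genotypes hold neighbouring title numbers, which the labels do not call a pairing. Deviations of equal numbers from their group means correlated at 0.21, 0.50, 0.43 and 0.070 over 13204 genes, so the numbers were not taken to pair the samples. Not every library correlated best with its own number: wild-type replicate 4 did so with mutant replicate 1 (0.32). Otos, Otor, Pou3f4, Tbx18 and Car3 were each higher in the mutant library of all 4 equal numbers. The share of all genes tested with 1 direction in all 4 is not given here, so this count has no background. Otor, Pou3f4, Tbx18 and Car3 also varied together and are not separate observations. With the number as a block, an assumed pairing, 17 genes were higher, 12 lower and 0 of the 9 called, with edgeR adjusted p = 0.0909 for Otor, Pou3f4, Tbx18 and Car3, and Slc4a10 was -0.080. With genes of all-or-none counts left out too (an alternative added after seeing the data), 1.56% of those tested were called, 163 higher and 154 lower. Among them were 4 of the 9, Otor (0.68, adjusted p = 0.0274), Pou3f4 (0.48, 0.0277), Tbx18 (0.41, 0.0313) and Car3 (0.46, 0.0313), while Slc4a10 was -0.068.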

Other observations

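Lists of other cell types were counted the same way as the fibrocyte genes. Over all genes tested 48.3% were positive and 5.30% had an unadjusted p under 0.05 in edgeR. No list was tested as a set, and genes within a list need not be separate observations. Marginal cells of the stria vascularis, the neighbours of the fibrocytes, had 5 of 6 genes with a negative log2 fold change (median -0.30), with 0 called in edgeR and with Esrrb and Lrp2 at an unadjusted p under 0.05. DESeq2 and limma-voom called 0 of them as well, with 3 and 2 at an unadjusted p under 0.05. Endothelial genes were positive for 8 of 8 (median 0.20, 0 called by all 3 tools), with Emcn (log2 fold change 0.62, SE 0.21) and Kdr (0.49, SE 0.20) at an unadjusted p under 0.05 in edgeR and 2 genes in each of the other tools. Hair cells had 1 of 7 positive (median -0.11), supporting cells 4 of 7 (median 0.072) and neurons 5 of 8 (median 0.023), with 0 called by all 3 tools and 0 at an unadjusted p under 0.05 in edgeR. All 8 genes of airway mucosa were negative (median -4.82), and 4 of them were called in edgeR, 6 in DESeq2 and 3 in limma-voom.

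Ratios of counts within a library, which do not depend on depth, set Coch apart from Otos. Coch had 2.11, 2.80, 2.34 and 2.35 times the count of Otos in wild-type replicates 1 to 4. In mutant replicates 1 to 4 the ratios were 1.32, 2.69, 1.08 and 2.08, so mutant replicates 1 and 3 were lowest. The ratio of Car3 to Pou3f4 was more even, at 17.2 to 26.5 over the 8 libraries, while that of Otor to Pou3f4 ran from 1.94 to 5.04.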
